A study of Mus musculus with 6 samples.

Results

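The integrin and laminin genes were the rows of the normalized-count table whose symbol is Itga or Itgb with a number, Itgae, Itgal, Itgam, Itgav or Itgax, or Lama, Lamb or Lamc with a number, and whose mean over the 6 libraries was at least 10. Of 53735 rows, 35 carried such a symbol and 33 reached the mean, 22 integrin genes and 11 laminin genes. The lowest one inside was Itgax, with a mean of 13.5 normalized counts, and the ones just outside were Itgb6 with 9.35 and Itgae with 5.79. The libraries came from primary, untreated mouse lung endothelial cells isolated with beads against CD31 and ICAM2: 4 labelled Zmpste24 knockout (KO 1 to KO 4) and 2 labelled Zmpste24 wild type (WT 1 and WT 2). The cells were grown to confluence on gelatin without passage, and the study describes them as nearly pure endothelium. Age and strain are not given in the sources used here, and separate mice for the libraries are not stated, so p-values measure the spread between libraries, which may be partly technical. Zmpste24 encodes the protease that completes lamin A maturation, and its loss in mice is a progeria model.

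Integrins are cell surface receptors made of an alpha and a beta chain. The chain pair decides which extracellular protein is bound, and the inner tail of the beta chain links the receptor to the actin cytoskeleton through talin and kindlin. Laminins are trimers of an alpha, a beta and a gamma chain that form the sheet of the basement membrane on which endothelial cells sit. In vessels the trimers with the Lama4 or the Lama5 chain are the usual ones, and integrins with the Itga3, Itga6 or Itga7 chain are their receptors.

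The libraries held 32699024 to 45613685 reads. Zmpste24 itself had 5079, 3764, 3599 and 3720 normalized counts in KO 1 to KO 4, against 5503 and 4148 in WT 1 and WT 2; which part was deleted is not in the labels, so this level is no check of them. KO 1 and WT 1 stood apart from the other 4 libraries along the first principal component, which held 77.3% of the variance of the tested genes. They are called the first library set here, and KO 2, KO 3, KO 4 and WT 2 the second; the labels mention 2 cohorts of mice and assign no library to either. The 8 endothelial markers summed to 34658 to 96241 counts in KO and to 163043 and 52097 in WT 1 and WT 2. The 5 lymphatic endothelial markers summed to 31562, 19111, 16105 and 12757 in KO 1 to KO 4, against 50160 and 34649 in WT 1 and WT 2. Each KO library lay below both WT libraries in this sum, which was not tested. Of its genes Reln overlapped, with 4787 counts in KO 1 and 4712 in WT 2, and Ccl21a was at 0 in all 6 libraries. Markers of other cells were present as well: 8 macrophage markers summed to 1398 in KO 1 and to 27002 to 43717 in KO 2 to KO 4, against 1655 and 29224 in WT 1 and WT 2. The 6 fibroblast markers summed to 327762 to 344194 in KO, against 373920 and 359027 in WT 1 and WT 2, above the endothelial sum in each library. That sum was mostly Col1a1 and Col1a2, and other fibroblast markers differed between the library sets. Pdgfra had 3946, 69228, 58581 and 34290 counts in KO 1 to KO 4, against 5842 and 39694 in WT 1 and WT 2, and Tcf21 and Lum were likewise lower in KO 1 and WT 1 than in the other libraries. The defining endothelial markers were thus present beside abundant fibroblast markers, and the levels below are those of the whole culture. As RNA of a bulk culture was measured, fewer cells of a type and less RNA per cell cannot be told apart. Of related symbols outside the rule, Itga2b, the platelet integrin chain, averaged 90.4 counts, the integrin-associated genes Itgb1bp1, Itgbl1 and Itgb3bp 1484, 429 and 145, Itgad 0.174, and Itgb2l 0.

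Per kb of exon, Itgb1 was the most abundant integrin gene in every library. It encodes the beta chain shared by the receptors for fibronectin, collagen and laminin. It had 124622, 73621, 67018 and 63463 normalized counts in KO 1 to KO 4, against 130581 and 63851 in WT 1 and WT 2. KO 1 and WT 1 were the high libraries, and the genotypes overlapped. Itga5, its partner in the main fibronectin receptor, had 78706, 29181, 33162 and 32174 counts in KO 1 to KO 4, against 81915 and 36990 in WT 1 and WT 2. Again KO 1 and WT 1 were high, and within each set the KO libraries lay below the WT library. Itgb1 made up 86.3% ± 2.59 (SD, n = 4) of the summed per-kb level of the 7 integrin beta genes in KO and 86.1% ± 2.91 (SD, n = 2) in WT. Itga5 made up 63.6% ± 5.95 (SD, n = 4) of the 15 integrin alpha genes in KO and 67.6% ± 2.77 (SD, n = 2) in WT. The Itgb1 shares differed between genotypes by less than the SD of either. The Itga5 shares differed by less than the SD in KO but by more than that in WT. They overlapped, at 70.4%, 56.1%, 62.5% and 65.4% in KO 1 to KO 4, against 69.6% and 65.6% in WT 1 and WT 2.

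The promoters of Itga5 and Itgb1, the most abundant pair, and of Itgam, the member that differed most between library sets, are shown because these genes carry the patterns described below. Each runs from 250 bases before to 50 bases after the RefSeq start on GRCm38.p6, 5′ to 3′ on the gene's strand. They are chr15:103366742-103367041 (minus strand, Itga5), chr8:128685404-128685703 (plus strand, Itgb1) and chr7:128062390-128062689 (plus strand, Itgam). Capitals mark GAGGAA, letters that the myeloid transcription factor Spi1 can bind, and GGGCGG, the GC box, each on either strand (TTCCTC and CCGCCC on the other strand); no match of one overlaps a match of the other.
Itga5: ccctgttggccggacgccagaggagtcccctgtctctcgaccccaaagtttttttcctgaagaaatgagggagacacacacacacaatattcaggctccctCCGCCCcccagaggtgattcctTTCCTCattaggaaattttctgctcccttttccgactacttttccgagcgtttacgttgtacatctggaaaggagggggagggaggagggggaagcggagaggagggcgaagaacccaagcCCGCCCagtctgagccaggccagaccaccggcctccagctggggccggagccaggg
Itgb1: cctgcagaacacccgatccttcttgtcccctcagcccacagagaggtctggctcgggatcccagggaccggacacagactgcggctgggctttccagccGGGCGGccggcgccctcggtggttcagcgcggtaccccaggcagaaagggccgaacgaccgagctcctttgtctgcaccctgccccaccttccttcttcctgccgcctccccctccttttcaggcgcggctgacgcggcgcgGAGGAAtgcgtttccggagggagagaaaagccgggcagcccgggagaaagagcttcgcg
Itgam: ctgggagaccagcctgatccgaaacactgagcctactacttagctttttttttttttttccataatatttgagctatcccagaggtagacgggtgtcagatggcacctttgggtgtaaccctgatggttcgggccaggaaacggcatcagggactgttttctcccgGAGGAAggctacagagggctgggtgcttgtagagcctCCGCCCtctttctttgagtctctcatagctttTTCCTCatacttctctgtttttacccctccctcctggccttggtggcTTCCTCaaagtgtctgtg
GAGGAA matched 3 times in the Itgam window, 1 time in that of Itga5 and 1 time in that of Itgb1. It occurred in 28.3% of 27025 promoters of this length and in 11 of the 21 members that have an entry (52.4%). GGGCGG matched 2 times for Itga5, 1 time for Itgb1 and 1 time for Itgam, and occurred in 35.9% of all promoters and in 11 of 21 members. A match is a description of the letters and not a site of binding. The GC content of member promoters was 44.0% to 72.7%, with a median of 59.3%, beside a median of 52.7% for all.

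**Figure D1:**
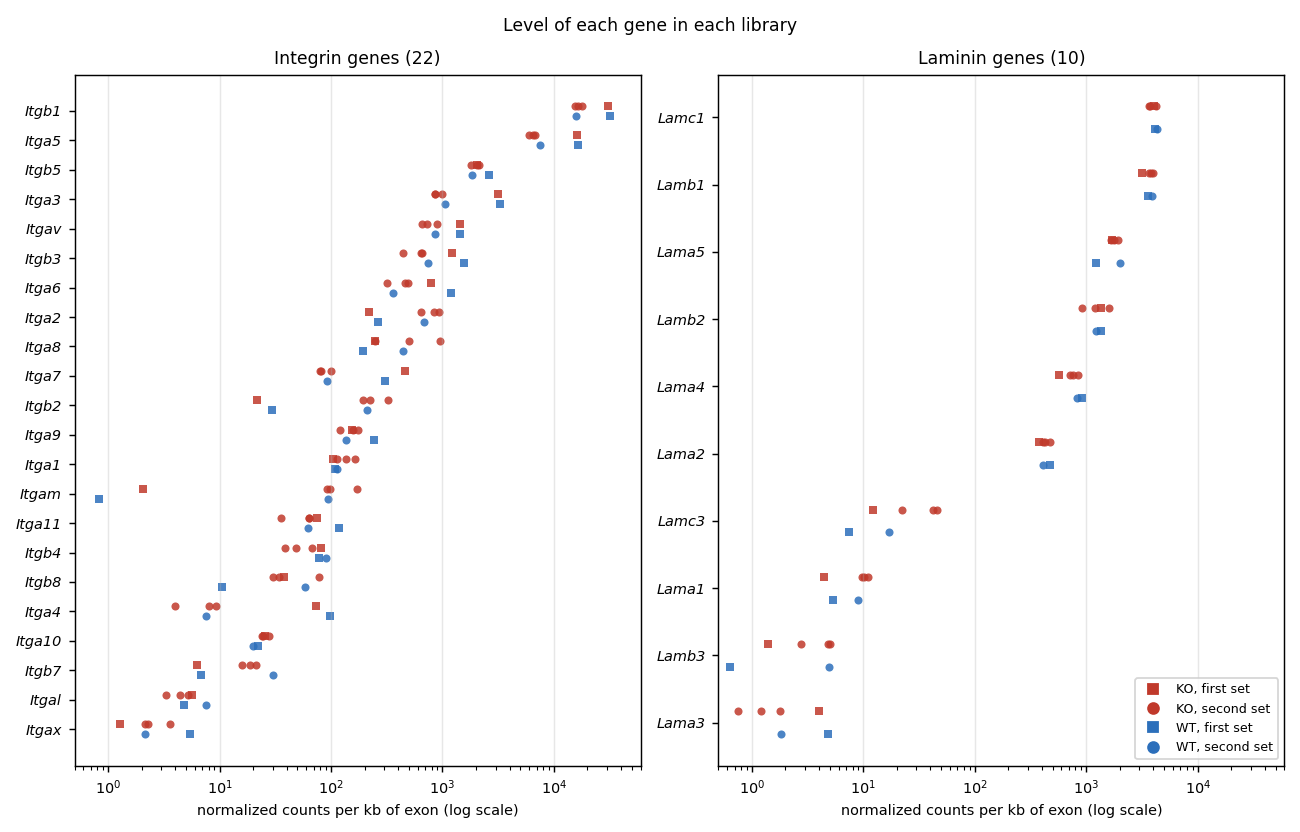
Normalized counts per kb of exon (horizontal log axis) for the 22 integrin and 10 of the laminin genes, ordered by their mean, with 1 point per library. Within the row of each gene the KO points are drawn above the WT points for legibility, which says nothing of their level. Squares are the first library set and circles the second. Itgb1 and Itga5 lead the integrins and Lamc1 and Lamb1 the laminins, and the squares stand apart from the circles in many integrin genes.

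The other integrin genes of the first ranks were receptors for RGD proteins, the class that binds fibronectin, vitronectin and osteopontin, and one laminin receptor. Itgb5, a vitronectin receptor chain, had 7235, 7513, 7206 and 6447 counts in KO 1 to KO 4, against 9238 and 6542 in WT 1 and WT 2. Its KO libraries lay within the range of the WT libraries apart from KO 4. Itgav, the alpha chain that pairs with Itgb3, Itgb5 and Itgb8, had 15452, 7054, 7826 and 9695 counts in KO 1 to KO 4, against 15291 and 9186 in WT 1 and WT 2. Itgb3, the beta chain of the vitronectin receptor of growing vessels, had 7121, 3806, 3895 and 2633 counts in KO 1 to KO 4, against 9240 and 4335 in WT 1 and WT 2. For Itgb3 each KO library lay below the WT library of its set, while KO 1 exceeded WT 2. Itga3, a laminin receptor chain, had 17852, 5665, 4893 and 4887 counts in KO 1 to KO 4, against 18860 and 6018 in WT 1 and WT 2, with the same order within each set.

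The laminin genes were led by the gamma and beta chains that occur in most trimers. Lamc1 had 33490, 30394, 31129 and 34664 counts in KO 1 to KO 4, against 34230 and 35783 in WT 1 and WT 2. Lamb1 had 31570, 36081, 39038 and 38060 counts in KO 1 to KO 4, against 35221 and 38646 in WT 1 and WT 2. Lamc1 was nearly flat over all 6 libraries. Lamb1 varied little as well, but it was lower in the first library set than in the second without overlap, by −0.19 log2. The ratio of Lamb1 to Lamc1 per length was 0.935 ± 0.112 (SD, n = 4) in KO and 0.880 ± 0.0301 (SD, n = 2) in WT. Lamc1 made up 97.4% ± 0.708 (SD, n = 4) of the gamma genes per length in KO and 97.7% ± 0.820 (SD, n = 2) in WT. Lamb2, the beta chain of mature vessel and muscle basement membranes, had 8278, 9743, 7302 and 5587 counts in KO 1 to KO 4, against 8188 and 7492 in WT 1 and WT 2. Its KO libraries spread on both sides of the WT libraries. The summed laminin level was 11419 to 12131 counts per kb in KO and 11766 and 12779 in WT 1 and WT 2, whereas the summed integrin level was 56602, 31681, 30293 and 28122 per kb in KO 1 to KO 4 and 60161 and 30037 in WT 1 and WT 2.

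Among the alpha chains Lama5 came first per length, then Lama4 and Lama2. Lama5, the alpha chain of adult vessel basement membranes, had 19596, 22056, 18880 and 20310 counts in KO 1 to KO 4, against 13850 and 22862 in WT 1 and WT 2. Lama4, the alpha chain of endothelial basement membranes from early vessel growth on, had 6929, 9096, 10230 and 8564 counts in KO 1 to KO 4, against 10979 and 9916 in WT 1 and WT 2. The KO libraries of Lama5 lay between the WT libraries, and those of Lama4 lay below both WT libraries except KO 3. Lama2, an alpha chain of muscle and other mesenchymal basement membranes, had 6117, 6727, 7711 and 7030 counts in KO 1 to KO 4, against 7732 and 6622 in WT 1 and WT 2. Lama5 made up 60.7% ± 3.76 (SD, n = 4) of the alpha genes per length in KO and 54.2% ± 10.8 (SD, n = 2) in WT, Lama4 24.5% ± 2.85 in KO and 30.1% ± 6.75 in WT, and Lama2 14.4% ± 1.09 in KO and 15.3% ± 3.99 in WT. The ratio of Lama4 to Lama2 per length was 1.53, 1.83, 1.80 and 1.65 in KO 1 to KO 4, against 1.92 and 2.03 in WT 1 and WT 2. The genotypes did not overlap in this ratio, which was singled out of 8 ratios after its values were seen and was not tested.

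**Figure D2:**
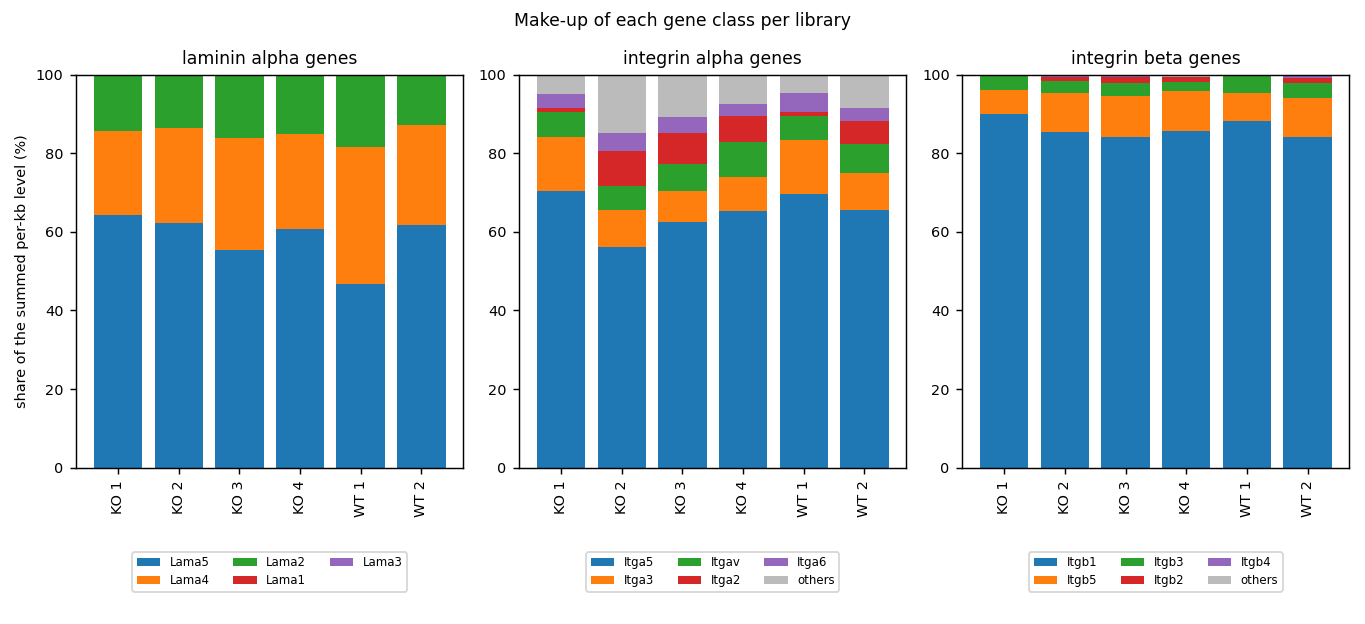
Share of the summed per-kb level (%) in each library, KO 1 to KO 4 and then WT 1 and WT 2, for the laminin alpha, integrin alpha and integrin beta genes; each bar adds up to 100%. Lama5, Itga5 and Itgb1 hold the largest share in every library, and the Lama5 share is lowest in WT 1, at 46.6%.

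The question the design poses is whether these genes differ between KO and WT. None of the 33 members passed in limma, with genotype as the sole term and Benjamini-Hochberg adjustment over 15229 tested genes, where 1 gene (0.00657%) was called in all. Of the members 0 had an unadjusted p under 0.05, beside 0.939% of all tested genes. When the library set was added to the fit as a second term, which is called adjusted for library set from here on, the counts were 0 called (0.00657% of all genes) and 1 with an unadjusted p under 0.05 (3.51% of all genes). Nor did edgeR or DESeq2 call a member, with or without that term (DESeq2 with genotype alone gave no p for Itga4 and so tested 32 of 33), where they called 0.00657% of all genes and 0.0463% of the 15134 with a p with genotype alone and 0.0131% and 0.328% with the term. A p that misses the threshold does not show that the levels were alike. The 95% intervals of limma lay within −1 to 1 on the log2 scale for 10 of 33 members with genotype alone (58.8% of all tested genes) and for 21 of 33 adjusted for library set (75.9%). The library set was found from these same libraries and genes. All SEs, intervals and p-values adjusted for it take the split as known and may understate the spread.

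The integrin genes had a median log2 difference, KO minus WT, of −0.30 with genotype alone, with 7 above 0 and 15 below, beside a median of 0.00 over all tested genes. Adjusted for library set the median was −0.11, with 8 above and 14 below. The value rested on the WT libraries: it was 0.04 without WT 1 and −0.56 without WT 2. The laminin genes had a median of −0.05 with genotype alone and −0.01 adjusted for library set, with 4 and 5 of 11 above 0. Set against the WT library of its own set, the integrin median was −0.07, 0.05, 0.05 and −0.11 in KO 1 to KO 4, and the laminin median −0.03, −0.03, 0.01 and −0.05; KO 2, KO 3 and KO 4 share WT 2 in these differences.

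**Figure D3:**
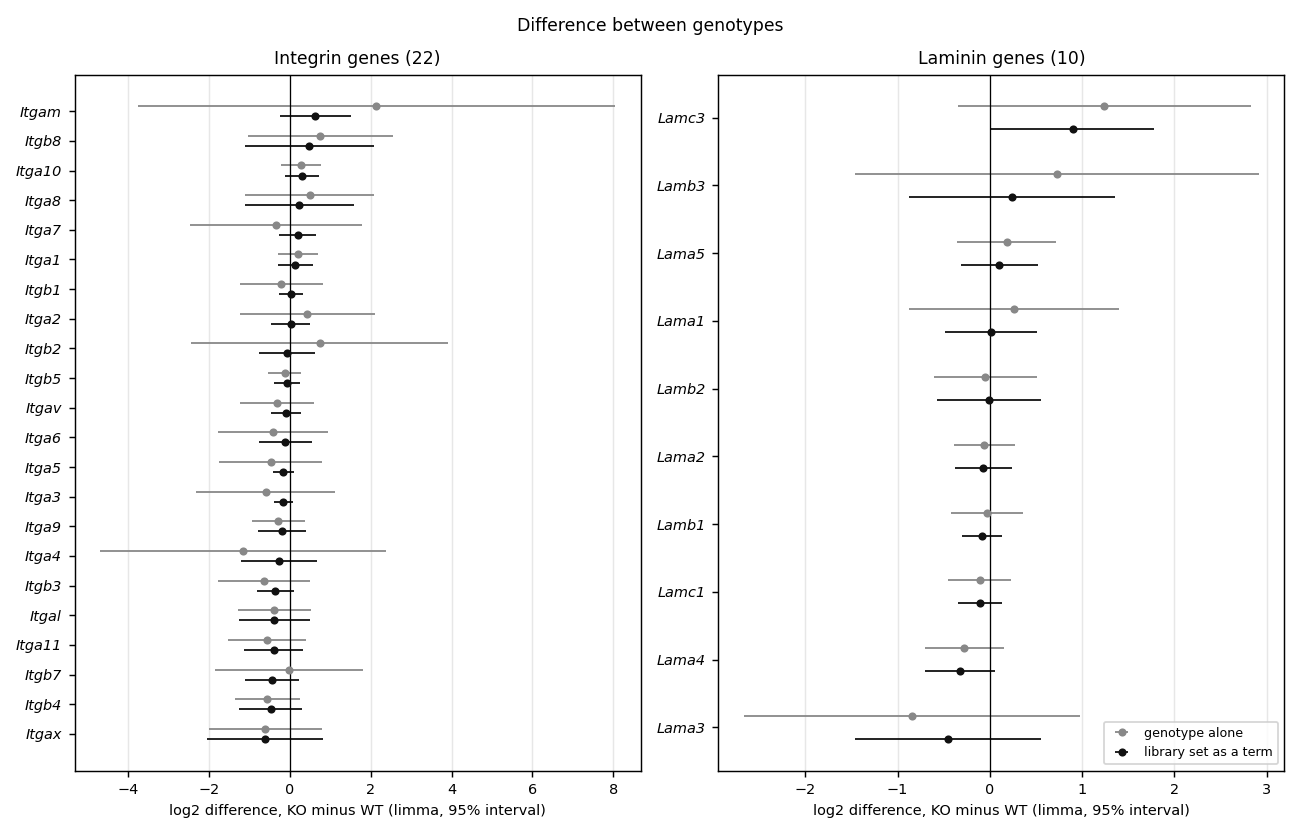
log2 difference, KO minus WT, of 22 integrin and 10 laminin genes from limma on log2(normalized count + 1), as points with 95% intervals, with genotype alone (grey) and adjusted for library set (black). The interval of Lamc3 adjusted for library set, 0.01 to 1.78, is the one that does not reach 0.

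The intervals differed in width among the abundant members. For Lamb1 the log2 difference was −0.08 ± 0.09 (SE; 95% interval −0.30 to 0.13) adjusted for library set, for Lamc1 −0.11 ± 0.10 (−0.35 to 0.13) and for Itgb1 0.03 ± 0.12 (−0.27 to 0.32). For Itga5 it was −0.16 ± 0.10 (−0.42 to 0.09), for Itga3 −0.17 ± 0.09 (−0.40 to 0.07) and for Itgb5 −0.08 ± 0.13 (−0.40 to 0.24). They were wider for Lama5 at 0.10 ± 0.17 (−0.32 to 0.52) and Lamb2 at −0.01 ± 0.23 (−0.58 to 0.56), beside a median SE of 0.15 over all tested genes. All 8 of these intervals reach past 0, so neither direction was called for the chief fibronectin receptor pair or for the common laminin beta and gamma chains. With genotype alone the intervals were −1.23 to 0.81 for Itgb1, −1.75 to 0.79 for Itga5 and −0.46 to 0.23 for Lamc1.

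Lamc3 (chr2:31887291-31946539, plus strand, GRCm38), which encodes a gamma chain of laminins with a restricted distribution, had the one unadjusted p under 0.05. It had 74.0, 278, 256 and 134 counts in KO 1 to KO 4, against 45.0 and 104 in WT 1 and WT 2. Each KO library was above the WT library of its set, but KO 1 lay below WT 2, so the genotypes overlapped. The means were 186 ± 97.6 (SD, n = 4) in KO and 74.4 ± 41.5 (SD, n = 2) in WT. The log2 difference was 1.24 ± 0.65 (SE; adjusted p in limma = 1.00) with genotype alone and 0.90 ± 0.35 (limma adjusted p = 0.999, unadjusted p = 0.0474) adjusted for library set. With that term the unadjusted p was 0.0452 in edgeR and 0.0215 in DESeq2, at adjusted p of 1.00 and 0.988. The log2 difference was 0.65 without WT 1 and 1.83 without WT 2. At 24.4 counts per kb Lamc3 was a small part of the gamma genes, 0.776% ± 0.444 (SD, n = 4) of their level in KO and 0.280% ± 0.151 (SD, n = 2) in WT.

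Itga10 (chr3:96645584-96664519, plus strand, GRCm38), a collagen receptor chain best known from cartilage, was the one member whose genotypes did not overlap, beside 4.68% of all tested genes (2.36% with KO above WT and 2.32% with KO below WT). It had 132, 124, 128 and 145 counts in KO 1 to KO 4, against 115 and 103 in WT 1 and WT 2. The means were 132 ± 9.28 (SD, n = 4) in KO and 109 ± 8.92 (SD, n = 2) in WT, a log2 difference of 0.28 ± 0.20 (SE; adjusted p in limma = 1.00), and of 0.30 ± 0.16 adjusted for library set (limma adjusted p = 0.999). Between the library sets it differed by −0.01 log2.

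Compared with the WT library of the same set, 2 of 33 members were higher in 4 of 4 KO libraries, Itga10 and Lamc3, beside 10.1% of all tested genes. Another 6 were lower in 4 of 4, Itga3, Itga5, Itgb3, Itgb7, Lama3 and Lamc1, beside 10.8% of all. The first count lies below its background share and the second above it, 3 of the 4 differences share WT 2, and no test was made of these counts. Itgb3 had the lowest difference of the abundant ones among them, −0.36 ± 0.18 (log2, SE, limma adjusted for library set; 95% interval −0.82 to 0.09; adjusted p = 0.999), and −0.63 ± 0.46 with genotype alone. For Lama4 the difference was −0.32 ± 0.15 with that term (95% interval −0.70 to 0.05; adjusted p = 0.999) and −0.28 ± 0.18 with genotype alone.

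**Figure D4:**
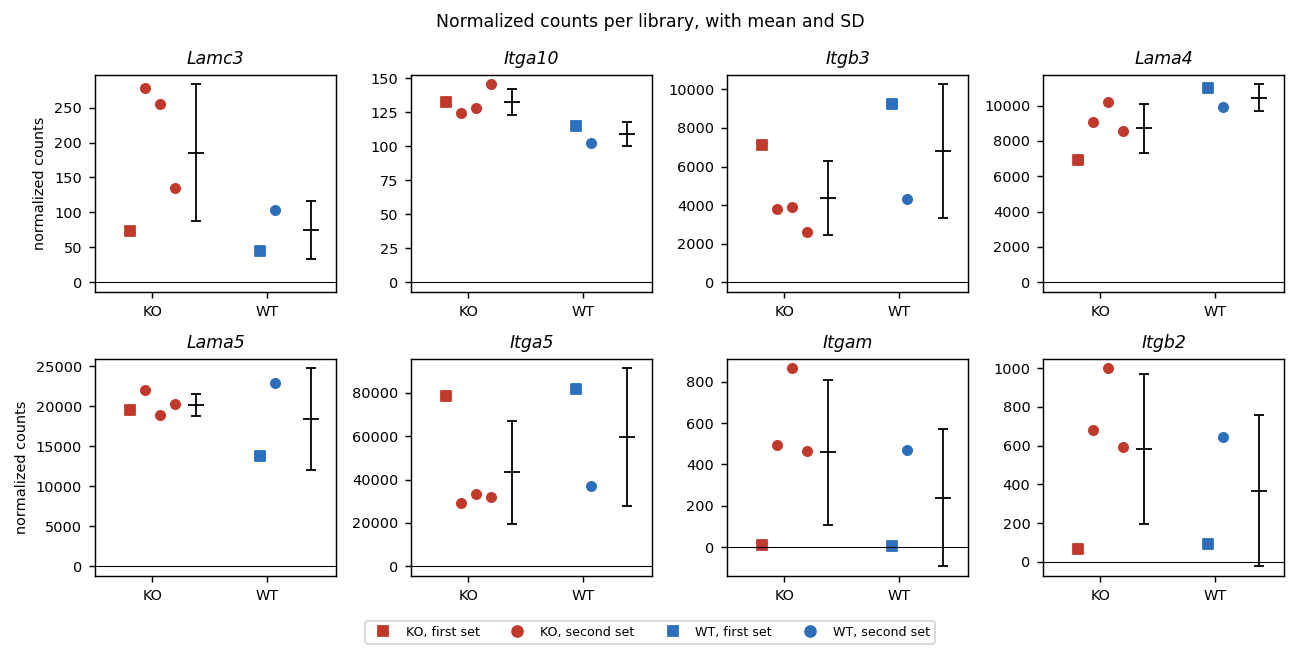
Normalized counts of 8 members in each library (KO left, WT right; squares first library set, circles second), with mean and SD at the side (n = 4 and 2). Itga10 alone shows KO above WT without overlap, and Itga5, Itgb3, Itgam, Itgb2 and Lamc3 separate by library set.

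The library sets differed in many members, and in 26 of 33 by more than the genotypes did adjusted for library set, beside 84.28% of all tested genes. The sets were found from all genes, these included, so the differences are given as a description with no test. Between the mean of the first set and the mean of the second, 17 of 33 members (51.5%) differed by more than 1 on the log2 scale, beside 19.0% of all tested genes. The integrins made up 12 of these 17, and the laminins 5, among them Lama1, Lama3, Lamb3 and Lamc3, which were of low abundance. The first set lay above the second without overlap in 11 members (30.7% of all tested genes) and below it in 9 (32.7%).

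Among the members higher in the first set without overlap were Itga3, Itga4, Itga5, Itga6, Itga7, Itga11, Itgav, Itgb1, Itgb3 and Lama3. Itga4, a receptor chain for fibronectin and for the vascular adhesion molecule Vcam1, had 1018, 55.7, 112 and 129 counts in KO 1 to KO 4, against 1357 and 106 in WT 1 and WT 2. Itga7, a laminin receptor chain of muscle cells, had 3716, 645, 658 and 802 counts in KO 1 to KO 4, against 2455 and 741 in WT 1 and WT 2. The first set exceeded the second by 3.60 log2 for Itga4 and by 2.09 for Itga7, and by 1.78 for Itga3, 1.29 for Itga5, 1.28 for Itga6 and 1.17 for Itgb3. The 8 markers of smooth muscle and pericytes summed to 216246, 126840, 98977 and 67090 counts in KO 1 to KO 4, against 238728 and 74447 in WT 1 and WT 2. The sums for endothelium and for smooth muscle and pericytes were highest in KO 1 and WT 1. The second of them was mostly Acta2 and Tagln, and other markers of that list had another order: Pdgfrb had 6708, 22486, 19138 and 10958 counts in KO 1 to KO 4, against 14572 and 12702 in WT 1 and WT 2. The part of these cells in the integrin levels was not tested. Between genotypes, adjusted for library set, Itga4 was at −0.28 ± 0.37, Itga7 at 0.19 ± 0.19 and Itga6 at −0.11 ± 0.26 (log2, SE).

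Among the members lower in the first set were the chains of the leukocyte integrin that myeloid cells use to bind complement fragments and Icam1. Itgam, its alpha chain, had 10.3, 496, 864 and 465 counts in KO 1 to KO 4, against 4.19 and 472 in WT 1 and WT 2. Itgb2, its beta chain, had 65.7, 683, 999 and 591 counts in KO 1 to KO 4, against 91.1 and 645 in WT 1 and WT 2. The differences between sets were −6.18 log2 for Itgam and −3.19 for Itgb2. Within the second set KO 3 was highest for both genes and for the summed macrophage markers, at 43717, and KO 4 lowest, at 27002; the part of macrophages in these values was not tested. Adjusted for library set the genotype difference was 0.63 ± 0.35 for Itgam (95% interval −0.24 to 1.51) and −0.07 ± 0.27 for Itgb2 (−0.76 to 0.62), and with genotype alone it was 2.14 ± 2.41 and 0.73 ± 1.30 (log2, SE). Itgb7, a beta chain of gut-homing lymphocytes, had 17.5, 43.8, 59.2 and 52.5 counts in KO 1 to KO 4, against 18.8 and 83.0 in WT 1 and WT 2, and was also lower in the first set, by −1.62 log2 and without overlap. Itgal, the alpha chain of the lymphocyte integrin, had 21.9 to 37.0 counts in KO and 31.4 and 49.5 in WT 1 and WT 2, with the sets 0.07 log2 apart. The 5 lymphocyte markers summed to 0 to 3.43 counts in KO and to 1.05 and 3.46 in WT 1 and WT 2, with Cd3e at 0 in all 6 libraries. Itgax, an alpha chain of dendritic cells and macrophages, had 6.16 to 17.2 counts in KO and 26.2 and 10.4 in WT 1 and WT 2, a level at which counting error is large.

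**Figure D5:**
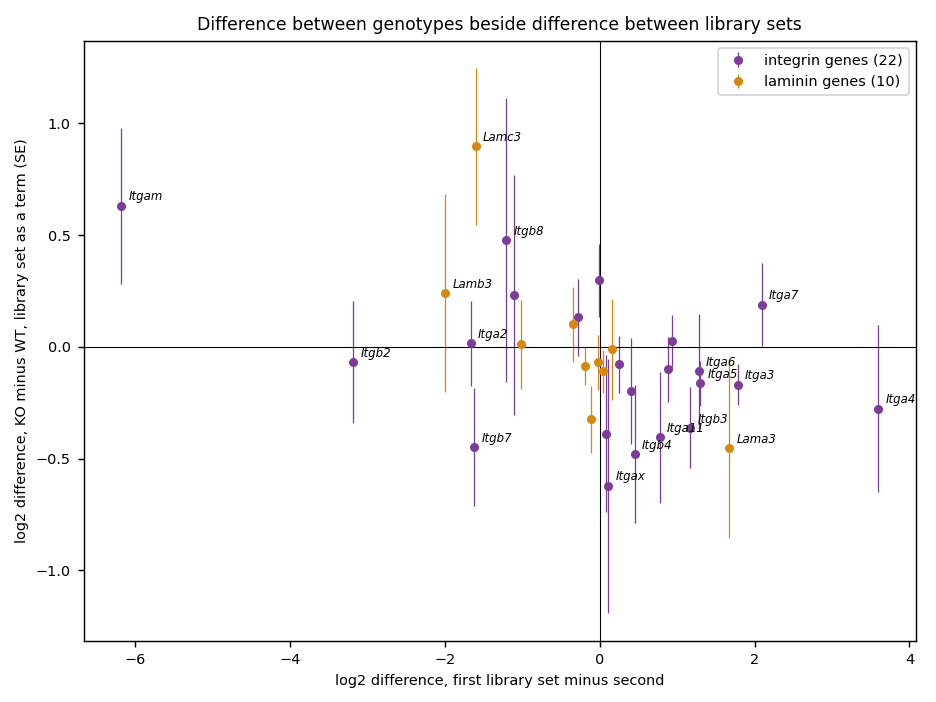
log2 difference between the library sets (horizontal, first minus second) and between genotypes (vertical, KO minus WT, limma adjusted for library set, bars are SE) for 32 members. The horizontal spread reaches from −6.18 for Itgam to 3.60 for Itga4, and the vertical one from −0.62 for Itgax to 0.90 for Lamc3.

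The collagen receptor chains differed in size and direction between the sets. Itga2 had 1548, 6573, 5950 and 4532 counts in KO 1 to KO 4, against 1876 and 4852 in WT 1 and WT 2, and so was low in KO 1 and WT 1. Itga1, whose gene lies 21.0 kb from that of Itga2 on chromosome 13, had 1948 to 3064 counts in KO and 2014 and 2122 in WT 1 and WT 2. Both were lower in the first set without overlap, by −1.67 log2 for Itga2 and by −0.29 for Itga1. Itga11, a collagen receptor chain of fibroblasts, had 384, 326, 327 and 183 counts in KO 1 to KO 4, against 600 and 319 in WT 1 and WT 2. Adjusted for library set the genotype difference was 0.02 ± 0.19 for Itga2, 0.13 ± 0.17 for Itga1 and −0.40 ± 0.29 for Itga11 (log2, SE; limma adjusted p = 0.999 each).

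Another pair of members are neighbours too. Itgam and Itgax lie 11.1 kb apart on chromosome 7, and the sets differed by −6.18 for Itgam and by 0.11 for Itgax. The 33 members lie on 14 chromosomes, and 0 of them on chromosome 4, which holds Zmpste24 (121059237 to 121098241, GRCm38, GENCODE M21).

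Lama3 and Lamb3, an alpha and a beta chain known from epithelial basement membranes, were at 2.39 and 3.26 counts per kb, far below Lamb1 and Lamc1 at 3674 and 4023. Lama3 had 43.1, 19.2, 12.9 and 8.07 counts in KO 1 to KO 4, against 51.3 and 19.6 in WT 1 and WT 2. Lamb3 went the other way between the sets, with 9.24, 31.9, 33.4 and 18.2 counts in KO 1 to KO 4, against 4.19 and 32.3 in WT 1 and WT 2. Itgb4, the beta chain that anchors epithelial cells to laminin, had 575, 474, 338 and 273 counts in KO 1 to KO 4, against 542 and 638 in WT 1 and WT 2. Its log2 difference was −0.56 ± 0.33 with genotype alone (SE, adjusted p in limma = 1.00) and −0.48 ± 0.31 adjusted for library set (limma adjusted p = 0.999). The 7 epithelial markers summed to 2872, 859, 752 and 1961 counts in KO 1 to KO 4, against 2094 and 1913 in WT 1 and WT 2, and the 5 mesothelial markers to 79439, 14046, 9652 and 18497 in KO 1 to KO 4, against 35257 and 19016 in WT 1 and WT 2. WT 1 exceeded WT 2 in both sums and in Lama3, while WT 2 exceeded WT 1 in Itgb4 and Lamb3. In the epithelial list Krt18 alone was higher in WT 1, with 1340 counts against 864 in WT 2. Every other marker of that list was lower in WT 1, Krt8 with 713 counts against 906 in WT 2. In the mesothelial list Msln, Upk3b and Upk1b were higher in WT 1. The genes Wt1 and Lrrn4 were lower there, with 1101 and 3478 counts against 1881 and 4604 in WT 2. Among the KO libraries KO 1 was highest in both sums and in Lama3 and Itgb4, and lowest in Lamb3. Its epithelial sum was mostly Krt18, with 1970 counts, and Krt8, with 855. The other 5 epithelial markers were lowest in KO 1 among the KO libraries, with the surfactant genes Sftpc and Sftpa1 at 0, against 53.5 to 120 and 12.1 to 39.2 counts in KO 2 to KO 4. The part of these cells in the integrin and laminin levels was not tested. Lama1, the alpha chain of embryonic basement membranes, had 43.1 to 106 counts in KO and 51.3 and 87.6 in WT 1 and WT 2.

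The remaining integrin chains overlapped between genotypes. Itga8, a receptor chain of mesenchymal and contractile cells, had 1844, 7024, 3698 and 1810 counts in KO 1 to KO 4, against 1435 and 3265 in WT 1 and WT 2. Itgb8, which with Itgav activates latent TGF-beta, had 419, 331, 378 and 871 counts in KO 1 to KO 4, against 117 and 641 in WT 1 and WT 2. Its KO library was above the WT library in the first set, while in the second set KO 2 and KO 3 were below WT 2 and KO 4 was above it. Itga6 had 7112, 4422, 4122 and 2840 counts in KO 1 to KO 4, against 10671 and 3228 in WT 1 and WT 2. Itga9, a chain related to Itga4 and known from lymphatic valves, had 917 to 1350 counts in KO and 1868 and 1059 in WT 1 and WT 2. The part of lymphatic endothelial cells in the Itga9 level was not tested. Adjusted for library set the log2 difference was 0.23 ± 0.54 for Itga8, 0.48 ± 0.64 for Itgb8 and −0.20 ± 0.24 for Itga9 (SE).

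Of the genes that act with integrins and laminins, 0 of 61 tested were called by limma in either direction, whether or not adjusted for library set (0.00657% of all tested genes each). Integrin activation and adaptor genes, 26 tested of 27, had a median log2 difference of −0.05 with genotype alone, with 9 above 0 and 17 below, and of 0.04 adjusted for library set. Of these Pxn, the gene of the focal adhesion scaffold paxillin, had 8869, 6628, 6605 and 6314 counts in KO 1 to KO 4, against 11824 and 7719 in WT 1 and WT 2, a log2 difference of −0.31 ± 0.07 with that term (SE; adjusted p in limma = 0.999, unadjusted p = 0.0057; DESeq2 adjusted p = 0.0678). Parvb, which encodes the adaptor beta-parvin, had 3074, 1402, 1379 and 1146 counts in KO 1 to KO 4, against 4885 and 1568 in WT 1 and WT 2, a difference of −0.43 ± 0.14 (limma adjusted p = 0.999). Both genes were lower than the WT library of their set in 4 of 4 KO libraries.

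The 18 basement membrane partners of laminin had a median log2 difference of −0.14 with genotype alone and of −0.03 adjusted for library set. Hspg2, the gene of the heparan sulphate proteoglycan perlecan, had 67780, 32092, 37060 and 36578 counts in KO 1 to KO 4, against 95412 and 41265 in WT 1 and WT 2, a log2 difference of −0.34 ± 0.12 with that term (SE; adjusted p in limma = 0.999). The 17 tested of 18 integrin ligands other than laminin had medians of −0.03 and 0.02. Among them Tgfb1, whose latent form is freed by integrins with the Itgav chain, had 4464, 2759, 2964 and 2488 counts in KO 1 to KO 4, against 6087 and 3777 in WT 1 and WT 2, a log2 difference of −0.46 ± 0.09 adjusted for library set. It was called by DESeq2 with that term (adjusted p = 0.0274), as 0.328% of all tested genes were, and not by limma (adjusted p = 0.999) or edgeR (adjusted p = 1.00). The lists held no other gene with an unadjusted limma p under 0.05 in these fits.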

How the data were processed

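Poly(A)-selected RNA was sequenced as single-end reads of 100 nt, per the series design text. The deposited table holds a normalized count signal per gene; its values are whole reads divided by 1 factor per library, and the series design text names DESeq2 for the normalization. The submitters' processing notes list Trimmomatic 0.36, STAR 2.6.0c, featureCounts (Subread 1.6.1) and the build GRCm38.p6. Other versions and HTSeq appear in the series design text, so the tools behind the table remain uncertain, as does the use of strand in counting.

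Tests covered genes averaging 10 or more normalized counts and used limma 3.58.1 in R 4.3.3 (mean trend). Values entered as log2(normalized count + 1), and genotype was the only covariate, with p-values adjusted by Benjamini-Hochberg and called under 0.05; this scale understates changes of low genes. Whole reads were recovered for 100% of values, within 1e-06 of a read, and tested with edgeR 4.0.16 (quasi-likelihood) and DESeq2 1.42.0. Counting error alone amounts to 31.6% of a mean of 10. The fits were also run on 3 simulated data sets with 200 changed genes each. The share of changes recovered is not given here, so no power is stated for the fits. Exon lengths and positions come from GENCODE M21 (GRCm38); a length is the union of all annotated exons, which overstates the expressed length of some genes. The library set, a split of the libraries along the first principal component, was added to the fit where values are given as adjusted for library set.

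Members and lists were chosen with earlier results of these data known. Per-library values were to be given for the 6 members of each family with the most counts per kb, members without overlap of the genotypes, members with an unadjusted p under 0.05 in either limma fit and members called by any tool; of each further list, genes with such a p, otherwise the 2 most abundant. 1 member enters the counts and medians over members and is not reported here by itself. Other members' values were singled out after they were seen.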

Additional observations from a re-analysis of the deposited data

Results flagged for a closer look

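In the 4 KO libraries, the highest or lowest library was far from the nearest other for 9 of 36 genes tested this way. The 36 were 32 members and Parvb, Pxn, Hspg2 and Tgfb1, which were included for their unadjusted p in limma adjusted for library set. The share of all tested genes flagged by this rule was not counted, so 9 of 36 has no background beside it. Chance flags about 1 in 20 in a group without a split, which these libraries are not. In 8 of the 9 the library was KO 1, the one KO library of the first library set. The sets were found from these same libraries and genes, so this count is a description and its cause was not tested. KO 1 had 17852 normalized counts of Itga3, beside 4887 to 5665 in KO 2 to KO 4, and 1018 of Itga4, beside 55.7 to 129. It had 78706 counts of Itga5, 3716 of Itga7 and 124622 of Itgb1. The same held for the adaptor and basement membrane genes Parvb with 3074, Pxn with 8869 and Hspg2 with 67780. WT 1 was the higher WT library for each of these 8. The exception was Itgb8, where KO 4 stood out, with 871 counts beside 331 to 419 in KO 1 to KO 3.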

How the results depend on the processing

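Across 18 alternatives no integrin or laminin gene was called. The number of genes called over the whole table, 1 in the reported fit, was 7 with DESeq2, 50 with DESeq2 and 2 with edgeR when adjusted for library set (both chosen after seeing the data), 2 with a pseudocount of 10, 0 with the replicate block (781 at an unadjusted p under 0.05, limma) and 0 with the second library set alone (302 at an unadjusted p under 0.05, limma). Leaving out a library gave 0 to 2; the 0 came without KO 2, KO 3 or KO 4 (74, 52 and 126 at an unadjusted p under 0.05, limma). The replicate block rests on 2 pairs that share only a title number. Without WT 1 or WT 2 the lone WT library is assumed to vary like the others. The integrin median, −0.30, was −0.11 adjusted for library set, −0.093 and −0.099 in edgeR and DESeq2 so adjusted, −0.12 with the replicate block, 0.0021 in the second set alone and −0.56 to 0.036 with a library left out. The laminin median, −0.05, was 0.018 in edgeR adjusted for library set and −0.11 to −0.0023 with a library left out. A minimum mean of 50 left 27 of 32 members.

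Single genes, none of them called, turned sign (log2, KO minus WT) under these settings. Limma adjusted for library set put Itga7 at 0.19, Itgb1 at 0.026 and Itgb2 at −0.068. So adjusted, edgeR put Itga7 at 0.20, Itgb1 at 0.034, Itgb2 at −0.0072 and Lamb2 at 0.018, and DESeq2 Itga7 at 0.19, Itgb1 at 0.028, Itgb2 at −0.024 and Lamb2 at 0.012. The replicate block put Itga7 at 0.20, Itgb1 at 0.069, Itgb2 at −0.19, Lama1 at −0.038 and Lamb2 at 0.20. The second set alone put Itga6 at 0.21, Itga9 at 0.11, Itgax at 0.25, Itgb1 at 0.089, Itgb5 at 0.11, Itgb8 at −0.42, Lama2 at 0.11, Lama5 at −0.17 and Lamb3 at −0.25, and TMM scaling put Itgb7 at 0.0024. With a library left out the range was −0.25 to 1.12 for Itga2, −1.43 to 0.22 for Itga3, −2.99 to 0.68 for Itga4, −1.05 to 0.097 for Itga5, −1.28 to 0.44 for Itga6, −1.21 to 0.52 for Itga7, −0.098 to 1.09 for Itga8, −0.69 to 0.12 for Itga9, −1.12 to 5.39 for Itgam, −0.68 to 0.054 for Itgav and −1.24 to 0.018 for Itgax. It was −0.72 to 0.31 for Itgb1, −0.67 to 2.14 for Itgb2, −0.38 to 0.12 for Itgb5, −1.06 to 1.03 for Itgb7, −0.47 to 1.97 for Itgb8, −0.11 to 0.65 for Lama1, −0.17 to 0.053 for Lama2, −0.18 to 0.54 for Lama5, −0.10 to 0.034 for Lamb1, −0.17 to 0.098 for Lamb2 and −0.61 to 2.07 for Lamb3. Without WT 1, 20 of 32 members turned sign. In that setting WT 2 of the second set stood against KO libraries of both sets, so genotype and library set were mixed in the difference. The share of all tested genes that turned sign there was not counted. Over all alternatives 22 members turned sign at least once and 10 did not. Counting error limits members with few counts, such as Itgax, Lamb3 and Lama3.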
